A study of Mus musculus with 12 samples.

Results

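The genes for the collagen prolyl and lysyl hydroxylases were followed in murine Braf V600E melanoma cells, with 10 genes chosen by name out of 30705 gene names in the table. They were *P4ha1*, *P4ha2*, and *P4ha3*, the catalytic subunits of prolyl 4-hydroxylase, *P4hb*, its other subunit, *Plod1*, *Plod2*, and *Plod3*, the lysyl hydroxylases, and *Lepre1*, *Leprel1*, and *Leprel2*, the prolyl 3-hydroxylases now named *P3h1*, *P3h2*, and *P3h3*. The 4 lines compared, scramble control and the knockouts *ptgs1*-KO, *ptgs2*-KO, *ptges*-KO, were each sequenced for mRNA in 3 samples, all grown in culture without added treatment. The 3 knockouts targeted the genes of cyclooxygenase 1 (COX-1), cyclooxygenase 2 (COX-2), and microsomal prostaglandin E2 synthase 1 (mPGES-1), and the comparison asks how the enzymes that modify collagen differed between these lines.

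All 4 lines, scramble included, came from one C57BL/6 melanoma line with the genotype Braf +/LSL-V600E, Tyr::CreERT2 +/o, p16INK4a -/-, in which the Tyr promoter drives an inducible Cre. The knockouts were made with CRISPR/Cas9 kits, selected with puromycin, and subcloned by limiting dilution. The study describes the 3 samples of a line as independent and as taken from 3 subclones, so the p-values below measure the spread between these samples, which includes that between subclones. Each sample was bulk RNA, so fewer cells of one kind and less RNA per cell cannot be told apart.

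Collagen chains are hydroxylated in the endoplasmic reticulum while they are still unfolded. Prolyl 4-hydroxylase is a tetramer of alpha and beta subunits whose product, 4-hydroxyproline, gives the triple helix its thermal stability. Lysyl hydroxylases make the hydroxylysine that carries sugars and forms stable cross-links, and prolyl 3-hydroxylases modify a small number of prolines. The alpha subunits, the lysyl hydroxylases, and the prolyl 3-hydroxylases need iron, oxygen, ascorbate, and 2-oxoglutarate, and *P4ha1*, *P4ha2*, and *Plod2* are textbook targets of hypoxia-inducible factor, which binds DNA at the letters ACGTG or GCGTG.

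Promoter sequences of 3 members are shown because *P4ha1*, *P4ha2*, and *Plod1* varied most between the lines. They are the 250 bases before the transcription start in RefSeq for GRCm38.p6, read 5′ to 3′ on the strand of the gene, none of them in an annotated exon, with ACGTG and GCGTG in capitals on either strand (CACGT and CACGC are the same letters read on the other strand). The *P4ha1* window lies at chr10:59323046-59323295 on the plus strand, the *P4ha2* window at chr11:54100674-54100923 on the plus strand, and the *Plod1* window at chr4:147936777-147937026 on the minus strand. The *P4ha2* window precedes the RefSeq start and lies inside the span that GENCODE gives for the gene, which has 1 transcript with an earlier start. For *Plod1* the RefSeq start lies upstream of the span that GENCODE gives. The first 30 bases after that start were not found in the GENCODE transcripts of *Plod1*.
P4ha1: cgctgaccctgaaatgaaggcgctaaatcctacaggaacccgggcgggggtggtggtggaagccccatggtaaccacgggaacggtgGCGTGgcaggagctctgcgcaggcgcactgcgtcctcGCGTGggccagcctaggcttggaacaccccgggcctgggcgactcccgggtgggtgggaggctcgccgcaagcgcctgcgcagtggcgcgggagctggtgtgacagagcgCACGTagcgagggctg
P4ha2: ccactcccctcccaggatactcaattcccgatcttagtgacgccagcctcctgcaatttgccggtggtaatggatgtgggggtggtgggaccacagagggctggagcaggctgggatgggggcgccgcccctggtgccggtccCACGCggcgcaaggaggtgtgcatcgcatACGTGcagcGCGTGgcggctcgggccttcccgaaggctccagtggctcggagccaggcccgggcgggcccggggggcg
Plod1: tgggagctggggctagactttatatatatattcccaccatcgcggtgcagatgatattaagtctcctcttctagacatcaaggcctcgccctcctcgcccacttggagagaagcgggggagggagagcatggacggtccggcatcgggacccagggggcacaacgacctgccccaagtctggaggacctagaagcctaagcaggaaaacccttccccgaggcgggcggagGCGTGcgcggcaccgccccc
The *P4ha1* and *P4ha2* windows each held 3 matches, and the *Plod1* window held 1. Of all 32851 RefSeq promoter windows of 250 bases, 38.6% held at least 1 match, with ACGTG in 16.6% and GCGTG in 28.2%. RefSeq promoters were matched for 8 of the 10 members, with 2 windows for *Lepre1*, and 7 of these 9 windows held a match, some only with bases of annotated exons. The windows of *P4ha1*, *P4ha2*, and *Plod1* were 69.6%, 70.0%, and 61.6% G or C, and the share over all promoters was not matched for this. *Plod2* and *Leprel1* had no entry. A match is a description of the letters and not a binding site.

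The summed values per sample lay between 878500 and 903880 RPKM (reads per kilobase of transcript, scaled to the total reads). The depth estimated from the steps of low values was 13.4 to 17.2 M reads per sample. This depth is rough, since the fit score of the chosen depth was 0.286 to 0.508 and that of the next best 0.197 to 0.373. *Ptgs1* was at 10.6% of scramble cells in *ptgs1*-KO cells, *Ptgs2* at 10.5% in *ptgs2*-KO cells, and *Ptges* at 47.9% in *ptges*-KO cells. In *ptgs1*-KO cells *Ptges* was also at 70.2% and *Ptgs2* at 78.5% (limma adjusted p = 0.0011 and 0.039). *Ptgs2* there was at 624.02, 668.29, and 501.52 RPKM in replicates 1, 2, and 3, against 748.76 to 776.77 RPKM in scramble cells. The study, which used one-way analysis of variance with Tukey comparisons and not limma, reports no reduction of *Ptgs2* in *ptgs1*-KO cells. A fit of *Ptgs2* without *ptgs1*-KO replicate 3 is not given here. Of 7 melanocyte markers, only *Mitf* had a mean of 1 RPKM or more, and *Sox10*, *Dct*, *Tyrp1*, and *Mlana* were listed at 0 in every sample, with a summed level of the list between 1.92 and 5.16 RPKM, so these markers gave little sign of a melanocyte program and the cells are named by their label. Fibroblast markers (6 genes, with *Pdgfra* alone at a mean of 1 RPKM or more) summed to 8.34 to 8.89 RPKM in scramble, 10.9 to 12.5 in *ptgs1*-KO, 3.81 to 4.98 in *ptgs2*-KO, and 5.03 to 6.01 in *ptges*-KO samples, and their part in the results was not tested. Leukocyte and endothelial markers summed to at most 2.14 and 0.28 RPKM. In *ptgs1*-KO replicate 3, the rows Rn45s and AK155692 held 13.5% of the summed values against 0.528% to 4.79% in the other 11 samples, and this sample was the lowest of its line in 8 of the 9 members tested, at a median of 0.801 times the mean of replicates 1 and 2, against 0.89 over all genes tested. The log2 differences of the members between *ptgs1*-KO and scramble cells are therefore also given without it. How many of all genes tested were lowest in this sample was not counted.

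Of the 10 members, 9 passed the filter of a mean of at least 1 RPKM and were tested with 11282 genes in all. *P4hb* was by far the most abundant, with a mean of 986 RPKM over the 12 samples. *Plod3* (116 RPKM), *Plod2* (104 RPKM), *Plod1* (66.0 RPKM), and *P4ha1* (57.2 RPKM) followed, then *Leprel1* (29.1 RPKM), *Lepre1* (21.7 RPKM), *Leprel2* (13.5 RPKM), and *P4ha2* (9.4 RPKM). The range over samples of each of these 8 genes overlapped that of the next in this order, except between *P4ha1* and *Leprel1*. Over the 4 lines, 8 of the 9 members differed by the moderated F test of limma, a linear model fitted to all genes at once, at a Benjamini-Hochberg adjusted p under 0.05, against 38.6% of all genes tested. *P4ha2* had the highest F, at 47.6 (limma adjusted p = 9.9e-06), followed by *P4ha1* at 28.9 (9.4e-05) and *Plod1* at 18.2 (6.5e-04). *P4hb* was the member that missed the threshold (limma adjusted p = 0.105).

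**Figure D1:**
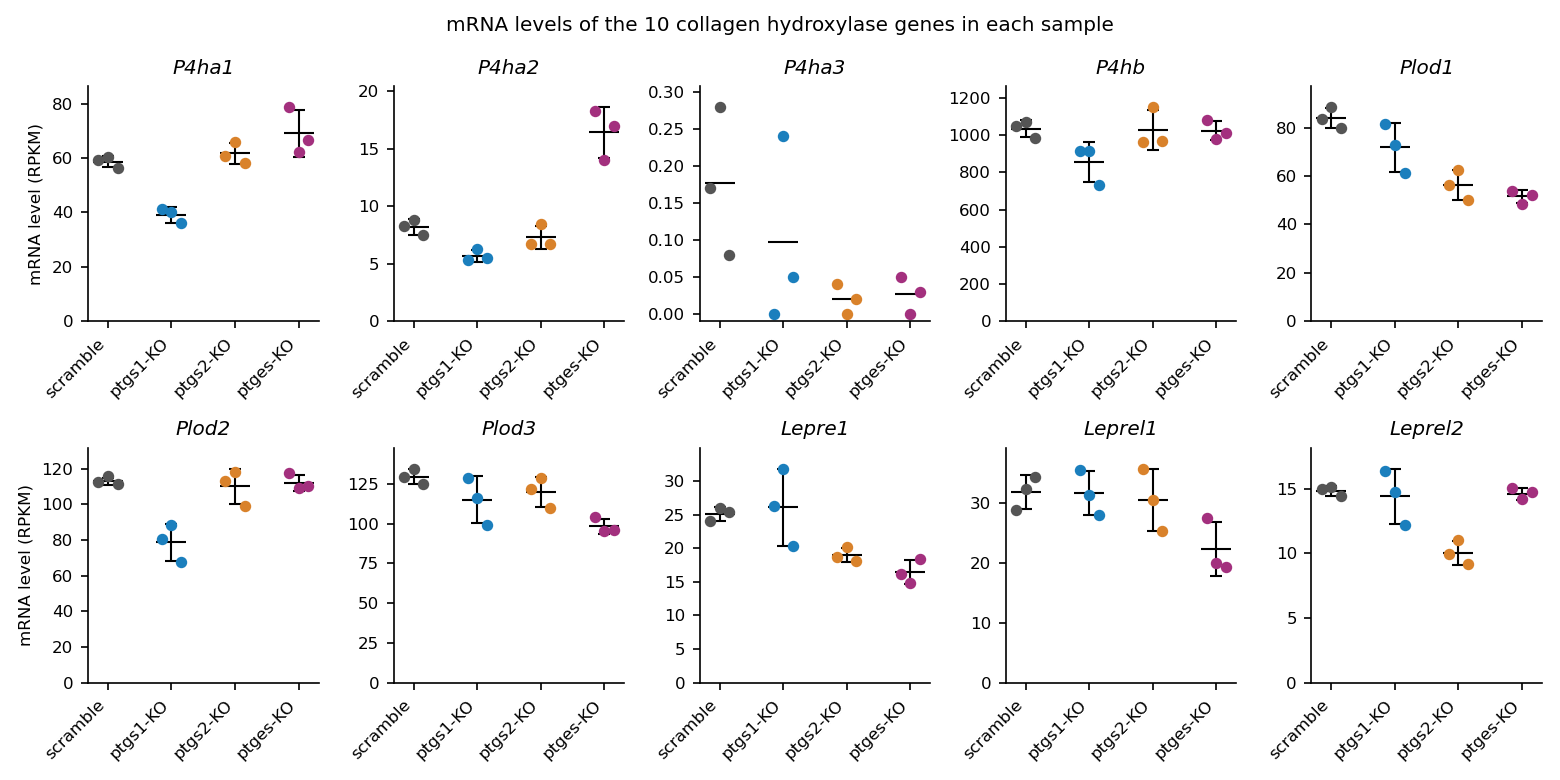
mRNA level in RPKM of each of the 10 genes (vertical axes from about 0, one scale per gene) in the 4 lines (horizontal axis), with 1 point per sample, a horizontal bar at the mean, and error bars of 1 SD (n = 3), left out for P4ha3. The ptges-KO samples stand at 14.03 to 18.3 RPKM of P4ha2, above every other sample, and the ptgs1-KO samples are the lowest for P4ha1 and Plod2.

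Both catalytic subunits of prolyl 4-hydroxylase that were tested were lower in *ptgs1*-KO cells than in scramble cells, and *P4ha2* was higher in *ptges*-KO cells. Differences are given on the scale of log2(RPKM + 1), which understates the change of genes with low levels, and gene positions on GRCm38 (mm10). *P4ha1*, on chr10:59323296-59373304, codes for the main alpha subunit of most cells. It was measured at 59.2, 60.3, and 56.5 RPKM in scramble cells and at 41.3, 40.2, and 36.0 RPKM in *ptgs1*-KO cells. It was at 60.8, 66.0, and 58.4 RPKM in *ptgs2*-KO cells and at 78.7, 62.1, and 66.6 RPKM in *ptges*-KO cells. All 3 *ptgs1*-KO samples lay below every other sample, and the *ptges*-KO samples lay above the scramble samples but overlapped with *ptgs2*-KO. *P4ha1* was lower in *ptgs1*-KO than in scramble cells, at 66.7% of its level (log2 difference -0.57 ± 0.09 SE, limma adjusted p = 0.00137). Without *ptgs1*-KO replicate 3, this log2 difference was -0.52 (limma adjusted p = 0.00662). The log2 difference of *ptges*-KO from scramble was 0.23 (95% interval 0.03 to 0.43) and missed the threshold over all genes (limma adjusted p = 0.0865), and it passed after median ratio scaling (adjusted p = 0.0222) and after quantile normalization (0.0364). Without *ptges*-KO replicate 1 it was 0.13 (limma adjusted p = 0.292). For *ptgs2*-KO cells the log2 difference was 0.07 (95% interval -0.13 to 0.27).

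*P4ha2*, on chr11:54100095-54131665, codes for a second alpha subunit that is prominent in chondrocytes and other collagen-producing cells. Its levels were 8.29, 8.80, and 7.45 RPKM in scramble cells and 18.3, 14.03, and 17.0 RPKM in *ptges*-KO cells. They were 5.31, 6.26, and 5.48 RPKM in *ptgs1*-KO cells and 6.73, 8.47, and 6.73 RPKM in *ptgs2*-KO cells. The *ptges*-KO samples lay above all others and the *ptgs1*-KO samples below all others, while *ptgs2*-KO and scramble overlapped. *P4ha2* was higher in *ptges*-KO cells, at 201% of the scramble level (log2 difference 0.92 ± 0.12 SE, limma adjusted p = 1.6e-04), and this held in all of the 16 settings in which it was tested. In *ptgs1*-KO cells it was lower, at 69.5% of scramble (log2 difference -0.46 ± 0.12 SE, limma adjusted p = 0.0315). That call was lost without *ptgs1*-KO replicate 3 (log2 difference -0.44, limma adjusted p = 0.0739), without replicate 1 (-0.42, 0.102), and without scramble replicate 1 (-0.45, 0.0988) or 2 (-0.41, 0.113). The log2 difference in *ptgs2*-KO cells was -0.15 (95% interval -0.41 to 0.11).

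The remaining alpha subunit gene, *P4ha3*, on chr7:100285520-100319699, was close to the detection limit. It was listed at 0.17, 0.28, and 0.08 RPKM in scramble cells, at 0, 0.24, and 0.05 RPKM in *ptgs1*-KO cells, at 0.04, 0, and 0.02 RPKM in *ptgs2*-KO cells, and at 0.05, 0, and 0.03 RPKM in *ptges*-KO cells. At the estimated depth these values stand for about 0 to 10 reads per sample. *P4ha3* fell under the filter and was not tested in the main fit. At these few reads, its scramble samples lay above all *ptgs2*-KO and *ptges*-KO samples and overlapped with *ptgs1*-KO. With no filter on low values it was not called in any comparison.

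*P4hb*, on chr11:120560298-120573253 on the minus strand, codes for protein disulfide isomerase, which is the beta subunit of prolyl 4-hydroxylase and also folds many other secreted proteins. Scramble cells held 1049.9, 1071.6, and 987.1 RPKM, and *ptgs1*-KO cells held 915.3, 917.3, and 733.5 RPKM. The levels were 961.3, 1149.7, and 969.7 RPKM in *ptgs2*-KO samples and 1081.4, 981.2, and 1012.6 RPKM in *ptges*-KO samples. The *ptgs1*-KO samples lay below all other samples, and the other 3 lines overlapped. The log2 difference from scramble was -0.28 in *ptgs1*-KO cells (95% interval -0.51 to -0.06, limma adjusted p = 0.121), and passed the threshold in 1 of the alternatives, median ratio scaling (-0.30, adjusted p = 0.0393). Without *ptgs1*-KO replicate 3 it was -0.18 (limma adjusted p = 0.271). For *ptgs2*-KO the log2 difference of *P4hb* was -0.02 (95% interval -0.25 to 0.21), and for *ptges*-KO it was -0.02 (95% interval -0.24 to 0.21).

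The makeup of the prolyl 4-hydroxylase transcripts was also compared as a ratio within each sample, which no scaling of the sample can change. *P4ha2* made up 12.2% ± 0.538 (SD, n = 3) of the summed *P4ha1* and *P4ha2* levels in scramble cells, 12.7% ± 1.13 in *ptgs1*-KO, 10.6% ± 0.732 in *ptgs2*-KO, and 19.2% ± 0.978 in *ptges*-KO samples. The 3 *ptges*-KO samples, at 18.4% to 20.3%, did not overlap with any other line. *P4hb* stood at 15.5 ± 0.0497 times the summed alpha subunits in scramble cells, 19.0 ± 1.15 times in *ptgs1*-KO, 14.9 ± 0.609 times in *ptgs2*-KO, and 12 ± 0.87 times in *ptges*-KO cells. The *ptgs1*-KO samples had the most *P4hb* per alpha subunit transcript and the *ptges*-KO samples the least, with no overlap of either with scramble. These ratios are a description of the levels above and were not tested.

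Among the lysyl hydroxylases, *Plod1* was lower in both *ptgs2*-KO and *ptges*-KO cells, *Plod2* in *ptgs1*-KO, and *Plod3* in *ptges*-KO cells, each against scramble. *Plod1*, on chr4:147909753-147936767 on the minus strand, codes for lysyl hydroxylase 1, which acts on lysines of the helical part of the chain. Its levels were 83.8, 88.4, and 79.99 RPKM in scramble cells and 81.6, 72.8, and 61.3 RPKM in *ptgs1*-KO cells. They were 56.2, 62.6, and 50.3 RPKM in *ptgs2*-KO cells and 53.9, 48.65, and 52.1 RPKM in *ptges*-KO cells. Both *ptgs2*-KO and *ptges*-KO samples lay below all scramble samples and overlapped with each other, and *ptgs1*-KO overlapped with scramble and with *ptgs2*-KO. *Plod1* was at 67.1% of scramble in *ptgs2*-KO cells (log2 difference -0.57 ± 0.11 SE, limma adjusted p = 0.00397). Its level in *ptges*-KO cells was at 61.3% of scramble (log2 difference -0.69 ± 0.11 SE, limma adjusted p = 4.7e-04). The log2 difference in *ptgs1*-KO cells was -0.23 (95% interval -0.46 to 0), and -0.12 without *ptgs1*-KO replicate 3.

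*Plod2*, on chr9:92542223-92608428, codes for lysyl hydroxylase 2, which acts on the telopeptides and so determines the kind of cross-link. Levels of 112.9, 115.8, and 111.8 RPKM were found in scramble cells and of 80.7, 88.4, and 67.8 RPKM in *ptgs1*-KO cells. The *ptgs2*-KO samples held 113.2, 118.0, and 99.0 RPKM and the *ptges*-KO samples 117.5, 109.1, and 110.4 RPKM. The *ptgs1*-KO samples lay below every other sample and the other 3 lines overlapped. *Plod2* was at 69.6% of scramble in *ptgs1*-KO cells (log2 difference -0.53 ± 0.10 SE, limma adjusted p = 0.0033), and without *ptgs1*-KO replicate 3 the log2 difference was -0.42 (limma adjusted p = 0.00824). Its log2 differences from scramble were -0.05 in *ptgs2*-KO cells (95% interval -0.25 to 0.16) and -0.02 in *ptges*-KO cells (95% interval -0.22 to 0.19).

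*Plod3*, on chr5:136987019-136996648, codes for lysyl hydroxylase 3, which also transfers glucose and galactose to hydroxylysine. Its exons share 529 bases with *Znhit1* on the opposite strand, which had a mean of 20.6 RPKM, and since the sources name a directional kit beside another kit and do not say whether strand was used in counting, reads from this overlap may have been counted for either gene. The levels were 129.4, 134.4, and 125.0 RPKM in scramble cells and 103.9, 95.2, and 96.3 RPKM in *ptges*-KO cells. They were 128.9, 116.1, and 99.2 RPKM in *ptgs1*-KO cells and 121.9, 128.4, and 109.8 RPKM in *ptgs2*-KO cells. The *ptges*-KO samples lay below all scramble and *ptgs2*-KO samples and overlapped with *ptgs1*-KO. *Plod3* was at 76.0% of scramble in *ptges*-KO cells (log2 difference -0.39 ± 0.09 SE, limma adjusted p = 0.00824). The log2 differences were -0.18 in *ptgs1*-KO cells (95% interval -0.38 to 0.02), or -0.08 without *ptgs1*-KO replicate 3, and -0.11 in *ptgs2*-KO cells (95% interval -0.31 to 0.09).

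Within the lysyl hydroxylases, the share of *Plod2* in the summed level of the 3 genes separated all 4 lines. It was 29.8% ± 2.08 in *ptgs1*-KO, 34.7% ± 0.546 in scramble, 38.4% ± 0.372 in *ptgs2*-KO, and 42.8% ± 0.264 in *ptges*-KO cells (SD, n = 3), and no sample of one line entered the range of another. *Plod1* made up 25.7% ± 0.427 in scramble, 27.0% ± 0.893 in *ptgs1*-KO, 19.7% ± 0.523 in *ptgs2*-KO, and 19.7% ± 0.453 in *ptges*-KO cells. The share of *Plod3* ranged from 37.5% ± 0.28 in *ptges*-KO to 43.2% ± 1.22 in *ptgs1*-KO cells. The summed level of the 3 genes was 327 ± 11 RPKM in scramble, 266 ± 33 in *ptgs1*-KO, 286 ± 25.3 in *ptgs2*-KO and 262 ± 11.6 in *ptges*-KO cells. The larger *Plod2* share in *ptgs2*-KO and *ptges*-KO cells thus came with *Plod2* levels that overlapped with scramble and with lower *Plod1*. In *ptges*-KO cells it also came with lower *Plod3* (98.4 against 129.6 RPKM in scramble). These shares were not tested.

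**Figure D2:**
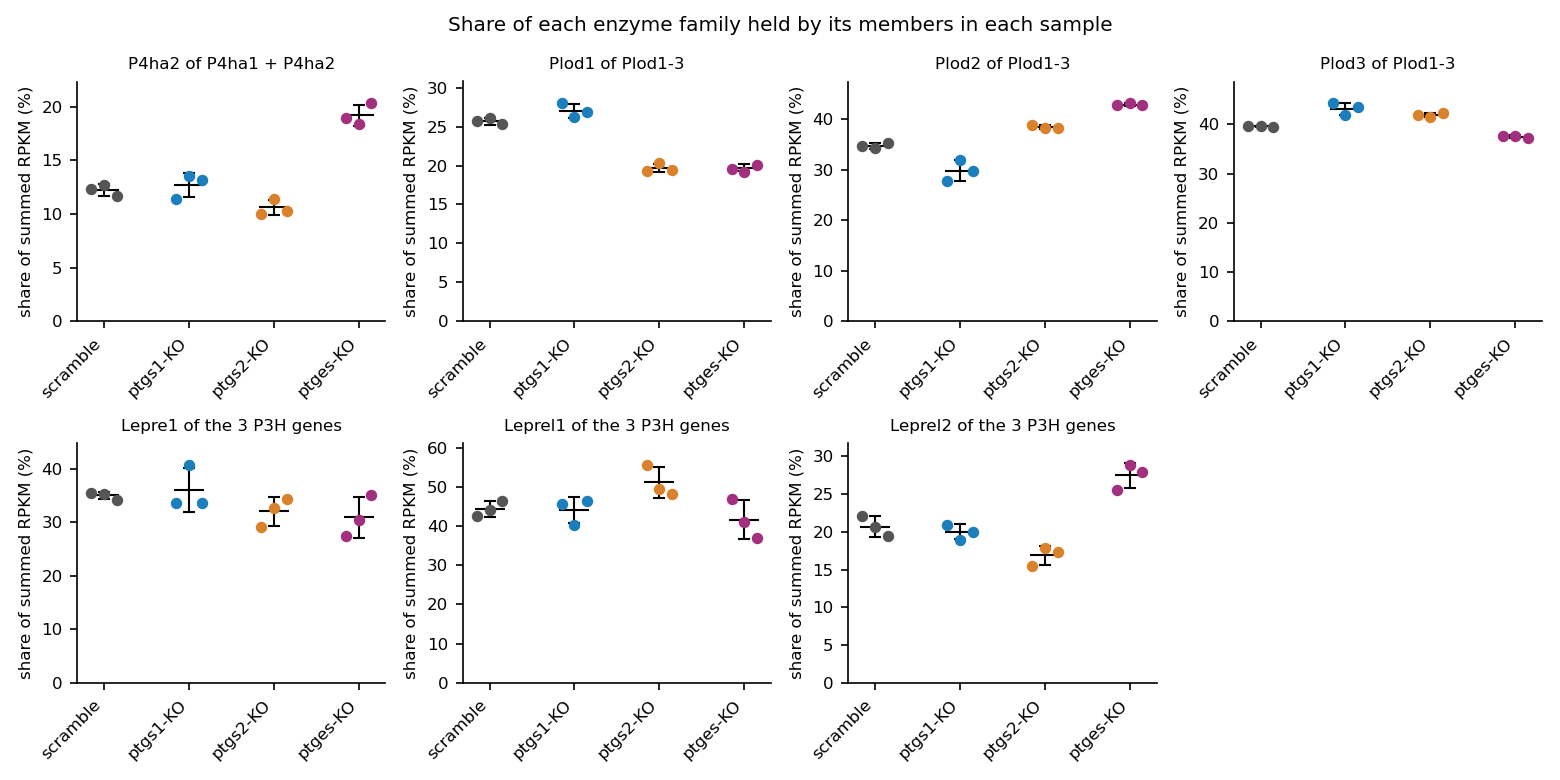
Share in % of the summed RPKM of each enzyme family held by its members (vertical axes from 0) in the 4 lines, with 1 point per sample, a bar at the mean, and error bars of 1 SD (n = 3). P4ha2 holds 18.4% to 20.3% of the P4ha1 and P4ha2 sum in ptges-KO samples, and the Plod2 share goes from 29.8% in ptgs1-KO to 42.8% in ptges-KO cells with no overlap between lines.

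Among the prolyl 3-hydroxylases, *Lepre1* and *Leprel1* were lower in *ptges*-KO and *Leprel2* in *ptgs2*-KO cells, each against scramble. *Lepre1*, on chr4:119232915-119248975, codes for prolyl 3-hydroxylase 1, which forms a complex with cartilage-associated protein and cyclophilin B on fibrillar collagens. It was at 24.0, 26.0, and 25.4 RPKM in scramble cells and at 26.3, 31.7, and 20.3 RPKM in *ptgs1*-KO cells. The *ptgs2*-KO samples held 18.6, 20.1, and 18.1 RPKM and the *ptges*-KO samples 16.1, 14.9, and 18.4 RPKM. The *ptgs2*-KO and *ptges*-KO samples lay below all scramble samples and overlapped with each other, and the *ptgs1*-KO samples spread around the scramble samples on both sides. *Lepre1* was at 65.6% of scramble in *ptges*-KO cells (log2 difference -0.58 ± 0.13 SE, limma adjusted p = 0.00573). In *ptgs2*-KO cells the log2 difference was -0.39 (95% interval -0.67 to -0.10) and missed the threshold (limma adjusted p = 0.0755). It passed there after median ratio scaling (adjusted p = 0.0321), after quantile normalization (0.0437), with only these 2 lines in the model (0.0193), and with the rows Rn45s and AK155692 left out (0.0385). The log2 difference in *ptgs1*-KO cells was 0.03 (95% interval -0.25 to 0.32), and 0.20 without replicate 3.

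*Leprel1*, on chr16:25959288-26105784 on the minus strand, codes for prolyl 3-hydroxylase 2, which is known to act on type IV collagen of basement membranes. The annotation places an antisense gene, *Gm4524*, over 1055 of its exon bases. Levels of 28.8, 32.3, and 34.5 RPKM were found in scramble cells and of 27.6, 20.1, and 19.4 RPKM in *ptges*-KO cells. The *ptgs1*-KO samples held 35.6, 31.4, and 28.1 RPKM and the *ptgs2*-KO samples 35.8, 30.5, and 25.4 RPKM. The *ptges*-KO samples lay below all scramble and *ptgs1*-KO samples, 1 of them close to the lowest scramble sample, and overlapped with *ptgs2*-KO. *Leprel1* was at 70.1% of scramble in *ptges*-KO cells (log2 difference -0.51 ± 0.15 SE, limma adjusted p = 0.022). The call was lost without scramble replicate 2 (log2 difference -0.50, limma adjusted p = 0.0622) or 3 (-0.45, 0.0816) and without *ptges*-KO replicate 2 (-0.44, 0.0865) or 3 (-0.42, 0.0869). The log2 differences were -0.01 in *ptgs1*-KO cells (95% interval -0.33 to 0.31), or 0.07 without *ptgs1*-KO replicate 3, and -0.07 in *ptgs2*-KO cells (95% interval -0.38 to 0.25).

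*Leprel2*, on chr6:124841089-124857752 on the minus strand, codes for prolyl 3-hydroxylase 3, which works with lysyl hydroxylase 1 in a complex of the endoplasmic reticulum. Its levels were 14.99, 15.14, and 14.39 RPKM in scramble cells and 9.94, 11.01, and 9.17 RPKM in *ptgs2*-KO cells. They were 16.4, 14.8, and 12.2 RPKM in *ptgs1*-KO cells and 15.05, 14.16, and 14.73 RPKM in *ptges*-KO cells. All *ptgs2*-KO samples lay below every sample of the other lines, which overlapped. *Leprel2* was at 67.7% of scramble in *ptgs2*-KO cells (log2 difference -0.52 ± 0.11 SE, limma adjusted p = 0.00691). Its log2 differences were -0.05 in *ptgs1*-KO cells (95% interval -0.28 to 0.18), or 0.06 without *ptgs1*-KO replicate 3, and -0.02 in *ptges*-KO cells (95% interval -0.25 to 0.21). *Leprel2* made up 27.5% ± 1.68 of the summed prolyl 3-hydroxylases in *ptges*-KO cells, 20.7% ± 1.36 in scramble, 20% ± 0.995 in *ptgs1*-KO, and 16.9% ± 1.28 in *ptgs2*-KO cells (SD, n = 3). The summed level of the 3 genes was 71.8 ± 3.48 RPKM in scramble and 72.2 ± 10.1 RPKM in *ptgs1*-KO cells, against 59.6 ± 6.07 RPKM in *ptgs2*-KO and 53.4 ± 4.89 RPKM in *ptges*-KO cells.

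Counted by line, *ptgs1*-KO cells had 3 of the 9 tested members lower and 0 higher than scramble by limma, where 9.26% of all genes tested were called (4.61% lower and 4.65% higher). At an unadjusted p under 0.05, 5 were lower and 0 higher. Tukey comparisons on untransformed RPKM, adjusted over the pairs of lines and not over genes, called 2, both lower. The 3 called were *P4ha1*, *P4ha2*, and *Plod2*, at 66.7% to 69.6% of the scramble level. Against scramble, *ptgs2*-KO cells had 2 members lower, *Plod1* and *Leprel2*, and 0 higher, where 11.1% of all genes were called (5.17% lower and 5.97% higher), with 3 lower and 0 higher at an unadjusted p under 0.05 and the same number, 2 lower and 0 higher, by Tukey comparisons. With *ptges*-KO cells 1 member, *P4ha2*, was higher and 4 were lower, against 26.3% of all genes called (11.9% higher and 14.4% lower). The 4 lower members were *Plod1*, *Plod3*, *Lepre1*, and *Leprel1*, at 61.3% to 76.0% of scramble. In this line 2 members were higher and 4 lower at an unadjusted p under 0.05. Tukey comparisons called 4 there, 1 of them higher, with the *Leprel1* call lost. The median log2 difference of the 9 members was -0.23 in *ptgs1*-KO, -0.11 in *ptgs2*-KO, and -0.02 in *ptges*-KO cells, and that of all genes tested was 0.01, 0.01, and -0.03. Without *ptgs1*-KO replicate 3 the median of the members in that line was -0.12. The 3 comparisons share the scramble samples.

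**Figure D3:**
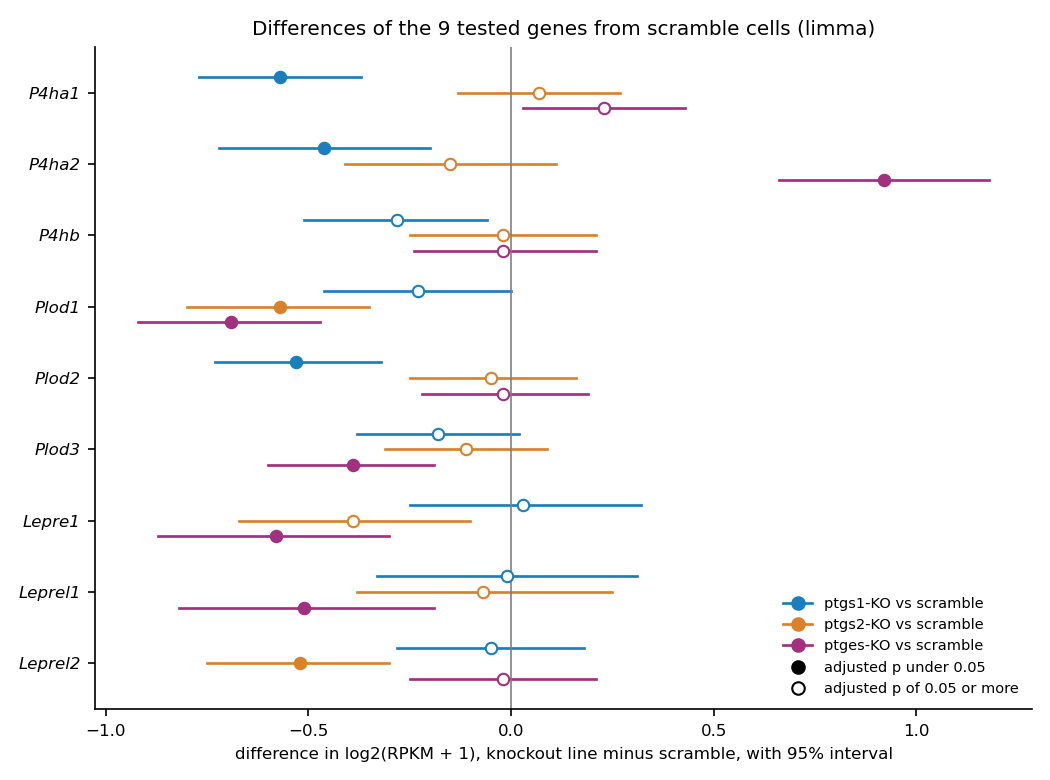
Difference in log2(RPKM + 1) of each knockout line from scramble cells (horizontal axis) with its 95% interval for the 9 genes tested (vertical axis), from limma over 12 samples, with filled points at an adjusted p under 0.05. P4ha2 is the single filled point to the right, at 0.92 in ptges-KO cells, and the 9 filled points to the left lie between -0.69 and -0.39.

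The knockout lines were also compared with each other. Between *ptges*-KO and *ptgs1*-KO cells, 6 of 9 members differed, against 30.2% of all genes tested. *P4ha2* was at 289% in *ptges*-KO cells relative to *ptgs1*-KO cells (log2 difference 1.38 ± 0.12 SE, limma adjusted p = 2.3e-06), *P4ha1* at 177% (0.80 ± 0.09 SE, 2.8e-05), and *Plod2* at 142% (0.51 ± 0.10 SE, 0.00136). In the other direction, *Lepre1* was at 63.0% (log2 difference -0.62 ± 0.13 SE, limma adjusted p = 0.00326), *Leprel1* at 70.5% (-0.50 ± 0.15 SE, 0.0213), and *Plod1* at 71.7% (-0.46 ± 0.11 SE, 0.0051). The *Leprel1* call was lost without *ptgs1*-KO replicate 1 (limma adjusted p = 0.0857) or 2 (0.05), and without *ptges*-KO replicate 2 (0.0854) or 3 (0.0895). *Plod3* reached the threshold in this comparison without *ptgs1*-KO replicate 3 (log2 difference -0.31, limma adjusted p = 0.0156, against -0.21 and 0.106 with it).

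Between *ptges*-KO and *ptgs2*-KO cells, 2 of 9 members differed, both higher in *ptges*-KO cells, against 16.6% of all genes tested (6.76% higher and 9.84% lower). *P4ha2* was at 225% (log2 difference 1.07 ± 0.12 SE, limma adjusted p = 5.0e-05) and *Leprel2* at 146% (0.51 ± 0.11 SE, 0.0055). *Plod3* (log2 difference -0.28, limma adjusted p = 0.0572) and *Leprel1* (-0.44, 0.0574) fell just short of the threshold. Both passed it without *ptgs2*-KO replicate 3 (limma adjusted p = 0.0405 and 0.027) and without *ptges*-KO replicate 1 (0.0469 and 0.0102). *Plod1* did not differ detectably between these 2 lines (log2 difference -0.12, 95% interval -0.35 to 0.11).

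Between *ptgs2*-KO and *ptgs1*-KO cells, 5 of 9 members differed, against 23.6% of all genes tested. *P4ha1* was at 158% in *ptgs2*-KO relative to *ptgs1*-KO cells (log2 difference 0.64 ± 0.09 SE, limma adjusted p = 2.3e-04) and *Plod2* at 139% (0.48 ± 0.10 SE, 0.00255). *Leprel2* was at 69.6% (log2 difference -0.48 ± 0.11 SE, limma adjusted p = 0.00521), *Lepre1* at 72.6% (-0.42 ± 0.13 SE, 0.0334), and *Plod1* at 78.4% (-0.34 ± 0.11 SE, 0.0319). The calls of *P4ha1*, *Plod2*, and *Leprel2* were kept and those of *Lepre1* and *Plod1* lost when *ptgs1*-KO replicate 1 or 2 or *ptgs2*-KO replicate 1 or 3 was left out. Leaving out *ptgs2*-KO replicate 2 removed the *Lepre1* call alone, and leaving out *ptgs1*-KO replicate 3 removed none of the 5.

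Across the 12 samples, some members varied together and others apart. *P4ha1* and *Plod2* had a Pearson r of 0.92 on log2(RPKM + 1), *P4hb* and *Plod2* of 0.91, and *Plod1* and *Lepre1* of 0.87. The lowest values were those of *P4ha2* with *Leprel1* (-0.69) and with *Lepre1* (-0.62). Among all other genes tested, those most like *P4ha2* were *Bnip3* (r = 0.969), *Lxn* (0.962), *Pgm2* (0.96), *Kcnab3* (0.96), and *Ctsc* (0.959). *Bnip3*, a mitophagy receptor, had mean levels of 105 RPKM in scramble, 66.3 in *ptgs1*-KO, 95.4 in *ptgs2*-KO, and 214 in *ptges*-KO cells. Those most like *P4ha1* were *Golph3l* (0.978), *Tspan7* (0.977), *Kctd17* (0.968), *4933424B01Rik* (0.962), and *Plau* (0.959), and those most like *Plod1* were *Lemd2* (0.981), *Polrmt* (0.976), *Xylt2* (0.967), *A830007P12Rik* (0.962), and *Plbd2* (0.962). These 12 points share 4 lines and their depth, so the values are a description.

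Genes that work beside the hydroxylases were taken from lists that were chosen with earlier results of these data known. Of 15 collagen-modifying partners (chaperones, peptidyl-prolyl isomerases, and the galactosyltransferases that follow lysyl hydroxylation), 13 were tested. Over all genes tested, the share called against scramble was 9.26% for *ptgs1*-KO, 11.1% for *ptgs2*-KO, and 26.3% for *ptges*-KO. In *ptgs1*-KO cells limma called 0 of the partners, 1 was lower at an unadjusted p under 0.05, and Tukey comparisons called 0. Lower in *ptgs2*-KO cells were 2 of 13, *Fkbp14* (2.76 RPKM against 4.17, log2 difference -0.46, limma adjusted p = 0.00877) and *Fkbp10* (212 RPKM against 272, -0.36, 0.0459). Lower in *ptges*-KO cells were also 2 of 13, against 14.4% of all genes lower there, *Fkbp10* (168 RPKM, log2 difference -0.69, limma adjusted p = 5.3e-04) and *Glt25d1* (155 RPKM against 208, -0.43, 0.0111). *Fkbp10* codes for an isomerase that acts with lysyl hydroxylase 2 on telopeptides, and *Glt25d1* for the enzyme that adds galactose to hydroxylysine. The count in *ptgs2*-KO cells went from 2 to 1 when any scramble sample or *ptgs2*-KO replicate 1 or 3 was left out, and that in *ptges*-KO cells when *ptges*-KO replicate 2 was left out. The latter ranged from 1 to 6 over 16 alternatives, with 6 after quantile normalization (1 of them higher) and 5 with only the 2 lines in the model or with Rn45s and AK155692 left out. The median log2 differences of the list were -0.04, -0.05, and -0.08 in the 3 knockouts.

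All 15 genes of the protein disulfide isomerase family and its oxidases other than *P4hb* were tested. By limma, 0 were called in *ptgs1*-KO cells (4 lower at an unadjusted p under 0.05, and 1 by Tukey comparisons) and 0 in *ptgs2*-KO cells (1 higher and 2 lower at an unadjusted p under 0.05, and 0 by Tukey comparisons). For *ptges*-KO cells 2 of 15 were higher and 2 lower, against 11.9% and 14.4% of all genes tested. *Ero1l*, the oxidase that recharges protein disulfide isomerase, was at 145 RPKM against 108 in scramble cells (log2 difference 0.43, limma adjusted p = 0.00468) and *Erp44* at 38.6 against 31.1 (0.30, 0.0222). *Pdia5* was at 15 RPKM against 24.2 (log2 difference -0.67, limma adjusted p = 4.4e-04) and *Tmx3* at 67.2 against 87.8 (-0.38, 0.0141).

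Of 18 further genes for dioxygenases that use 2-oxoglutarate but do not act on collagen, 15 were in the table and 14 were tested. In *ptgs1*-KO cells 1 was higher and 2 were lower, in *ptgs2*-KO cells 3 were higher and 1 lower, and in *ptges*-KO cells 4 were higher and 1 lower, where 9.26%, 11.1%, and 26.3% of all genes tested were called. *P4htm*, a prolyl 4-hydroxylase anchored in the membrane, was at 1.40 RPKM in scramble, 3.76 in *ptgs1*-KO (log2 difference 0.99, limma adjusted p = 8.2e-04), and 3.15 in *ptges*-KO cells (0.79, 0.00205). *Jmjd8* was at 34.0 RPKM in scramble and 7.35 in *ptgs1*-KO cells (log2 difference -2.09, limma adjusted p = 5.7e-07). *Phyh*, of peroxisomal fatty acid oxidation, was at 1.25 RPKM in scramble, 2.25 in *ptgs2*-KO (log2 difference 0.53, limma adjusted p = 0.0249), and 2.76 in *ptges*-KO cells (0.74, 0.00189). *Jmjd6*, which hydroxylates lysines of nuclear proteins, was at 49.9 RPKM in scramble, 64.0 in *ptgs2*-KO (0.35, 0.0193), and 69.1 in *ptges*-KO cells (0.46, 0.00206). *Ogfod1* was at 16.0 RPKM in *ptgs2*-KO against 12.7 in scramble cells (log2 difference 0.30, limma adjusted p = 0.041). The count of 4 in *ptgs2*-KO cells fell to 1 without scramble replicate 2 or *ptgs2*-KO replicate 1 or 2, and to 2 without scramble replicate 1 or 3 or *ptgs2*-KO replicate 3.

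Genes known to rise in low oxygen, a list that leaves out the hydroxylases, had 22 of 25 members tested. This list too was chosen with earlier results of these data known, so its direction is not independent evidence. In *ptgs1*-KO cells 13 were lower and 0 higher by limma (14 lower and 1 higher at an unadjusted p under 0.05, and 10 lower and 0 higher by Tukey comparisons), with a median log2 difference of -0.36, where 4.61% of all genes tested were lower. The *ptges*-KO cells had 17 higher and 2 lower, with a median of 0.53, where 11.9% of all genes were higher and 14.4% lower. For *ptgs2*-KO cells 2 were higher and 3 lower, with a median of 0.03, where 11.1% of all genes were called. The medians over all genes tested were 0.01, -0.03, and 0.01 in the same order. Without *ptgs1*-KO replicate 3, 12 were lower and 1 higher in *ptgs1*-KO cells. The count in *ptgs2*-KO cells was 3 without any 1 of the scramble samples or without *ptgs2*-KO replicate 2 or 3.

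*Pgk1*, a glycolytic enzyme, was at 2169.8 RPKM in *ptges*-KO against 1000.4 RPKM in scramble cells (log2 difference 1.11, limma adjusted p = 5.4e-07), and at 1233 RPKM in *ptgs2*-KO cells (0.30, 0.0246). *Bnip3* was at 214 RPKM in *ptges*-KO cells (log2 difference 1.02, limma adjusted p = 4.5e-06) and *Ndrg1* at 103 against 50.4 RPKM (1.01, 2.2e-06), with *Ndrg1* at 35.1 RPKM in *ptgs2*-KO cells (-0.51, 0.00169). *Adm*, which codes for the vasodilator adrenomedullin, was at 5.19 RPKM in scramble, 57.5 in *ptges*-KO (log2 difference 3.24, limma adjusted p = 8.3e-10), 0.137 in *ptgs2*-KO (-2.44, 1.2e-08), and 0.0667 in *ptgs1*-KO cells (-2.54, 1.1e-08). *Egln3*, a prolyl hydroxylase of hypoxia-inducible factor that also stands in the dioxygenase list, went the other way from most of the list in *ptges*-KO cells, at 3.12 RPKM in scramble, 1.98 in *ptges*-KO (log2 difference -0.46, limma adjusted p = 0.0132), 0.303 in *ptgs2*-KO (-1.66, 1.6e-06), and 0.163 in *ptgs1*-KO cells (-1.82, 4.7e-07). In *ptgs1*-KO cells *Ak4* was at 6.51 RPKM against 15.2 (log2 difference -1.10, limma adjusted p = 7.8e-04) and *Ankrd37* at 6.18 against 10.6 (-0.71, 0.0052). *P4ha1* and *P4ha2* were lower in the line with most of this list lower, and *P4ha2* higher in the line with most of it higher. *Plod2* was lower in *ptgs1*-KO cells and overlapped with scramble in *ptges*-KO cells. Oxygen in the cultures was not among the measurements used here, and the part of these genes in the hydroxylase levels was not tested.

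The substrates of the hydroxylases were taken from a list of 38 collagen chain genes, of which 11 were tested. The study chose several of these genes by their level in the same samples and reported them as lower in *ptges*-KO cells. Their direction here repeats that report and is not independent evidence. The study also reported some of them lower in these cells by qRT-PCR. In *ptges*-KO cells 9 were lower and 1 higher, in *ptgs1*-KO cells 2 were higher and 1 lower, and in *ptgs2*-KO cells 2 were higher and 2 lower, with median log2 differences of -0.72, 0.02, and 0.08, where 26.3%, 9.26%, and 11.1% of all genes tested were called. *Col18a1* was at 2.81 RPKM in *ptges*-KO against 13.3 in scramble cells (log2 difference -1.91, limma adjusted p = 2.5e-07), and *Col3a1* at 204 against 466 RPKM (-1.19, 2.7e-06). *Col3a1* was at 290.4 RPKM (-0.69, 7.5e-04) and *Col4a1* at 345 against 508 RPKM (-0.57, 0.00537) in *ptgs2*-KO cells. *Col5a2* was at 4.14 RPKM in scramble, 0.18 in *ptgs1*-KO (log2 difference -2.12, limma adjusted p = 7.4e-08), 33.7 in *ptgs2*-KO (2.75, 6.6e-09), and 8.85 in *ptges*-KO cells (0.93, 9.6e-05). *Col6a1* was at 1.42 RPKM in scramble, 10.9 in *ptgs1*-KO (2.30, 2.9e-08), and 0.32 in *ptges*-KO cells (-0.87, 1.4e-04). *Col5a1* was at 52.4 RPKM in *ptgs1*-KO against 16.1 in scramble cells (log2 difference 1.64, limma adjusted p = 6.8e-07) and *Col7a1* at 10.7 RPKM in *ptgs2*-KO against 2.10 (1.91, 4.3e-07). In *ptges*-KO cells 9 of 11 collagen chains and 4 of 9 hydroxylases were thus lower, against 14.4% of all genes tested. *Col5a2* and *P4ha2* were higher. Of the lower hydroxylases, *Leprel1* passed the threshold in 12 of 17 settings.

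**Figure D4:**
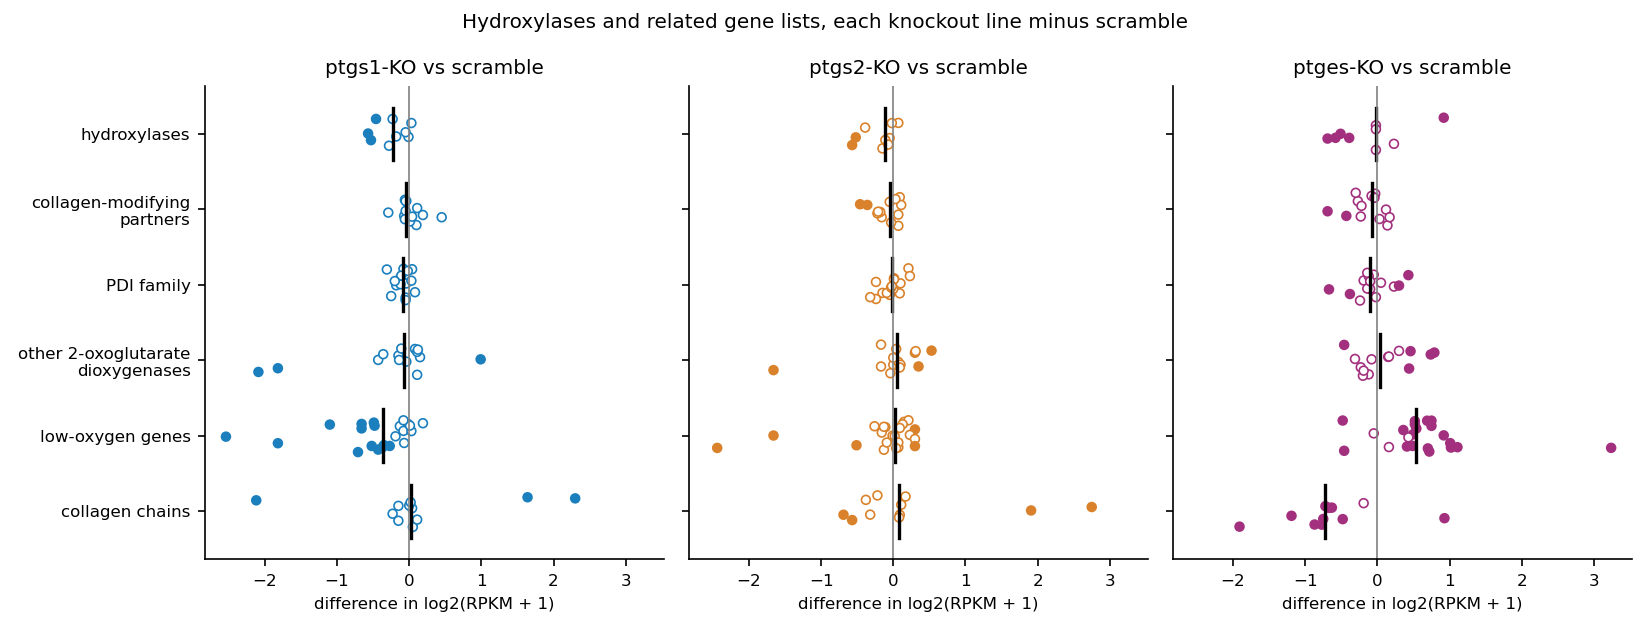
Difference in log2(RPKM + 1) from scramble cells (horizontal axes) of the 9 hydroxylases and of 5 related gene lists (vertical axis), in 1 panel per knockout line, with 1 point per gene, filled at an adjusted p under 0.05, and a black bar at the median. The low-oxygen genes have a median of -0.36 in ptgs1-KO and 0.53 in ptges-KO cells, against -0.23 and -0.02 for the hydroxylases.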

How the data were processed

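mRNA was sequenced by the authors as 101 bp paired-end reads, and the deposited values are RPKM per gene, normalized by the authors, with the aligner, counter, and counting of strand not given in the sources used here. The methods of the study call these values normalized counts. The build was mm10 per the submitters' processing notes, and positions were taken from GENCODE M21. The filter, of a mean of at least 1 RPKM over 12 samples, and a pseudocount of 1 were applied before limma 3.58.1 (R 4.3.3) was fitted on log2(RPKM + 1) of 11282 genes with lmFit and eBayes with trend, all 4 groups in one model. This scale understates the change of low genes. Limma p-values were adjusted by Benjamini-Hochberg over all genes tested in each comparison, at a threshold of 0.05. Those of the Tukey comparisons were adjusted over the pairs of lines within a gene and not over genes. Counts were not used, so intervals from counting error were not computed.

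The members, lists, and tests were chosen with earlier results of these data known. All 10 members, the 3 target genes, at most 4 called genes per list and comparison (by size of change), and the 5 genes most alike to each of the 3 members with the highest F were named. Replicate numbers were not tied to a shared culture or day, and deviations of same-numbered samples correlated at a mean r of 0.0123, so no pairing was used. At most 0.514% of genes were listed with the same value in any pair of samples. The fit was tested on simulated data for *ptges*-KO against scramble with 11282 genes, and found 90% of changes of 1 and 59% of changes of 0.5 (log2), with 6.29% of calls false. In it, 100 genes changed by each size and the noise was independent between genes. The data had 2969 calls in this comparison, so these rates may not hold for the data. Figures were drawn with matplotlib 3.10.9 in Python 3.11.15. Alternatives were another pseudocount (0.1), no filter or one of 10 RPKM, 2 other scalings, a replicate block, fits of 2 groups, no trend, the Tukey comparisons of the study, and each sample left out in turn. Leaving out the rows Rn45s and AK155692 was added after their values were seen.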

Additional observations from a re-analysis of the deposited data

Results flagged for a closer look

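*P4ha2* stood out because its difference from scramble cells had opposite signs in 2 knockout lines. It was lower in *ptgs1*-KO cells (log2 difference -0.46) and higher in *ptges*-KO cells (0.92), and the difference between these lines was 1.38 on the log2 scale (limma adjusted p = 2.3e-06 over 11282 genes). The lower call in *ptgs1*-KO cells was kept in only 10 of 16 settings. Each of the 3 *ptges*-KO samples (14.03 to 18.3 RPKM) lay above each of the 3 *ptgs1*-KO samples (5.31 to 6.26 RPKM). Both differences from scramble use the same 3 scramble samples, while the difference between the knockout lines does not use them except through the shared estimate of the spread.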

How the results depend on the processing

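Of 23 member differences that passed the threshold, 5 lost it in at least 1 alternative, none changed sign, and the rest kept both. Differences of *P4ha2* in *ptgs1*-KO and of *Leprel1* in *ptges*-KO cells from scramble were among the 5. Both were also lost with Tukey comparisons (Tukey adjusted p = 0.153 and 0.0871), and the first without a filter (limma adjusted p = 0.057). For *ptges*-KO against *ptgs2*-KO the count of 2 became 4 with median ratio scaling, quantile normalization, the replicate block, or Rn45s and AK155692 left out, and 1 with a filter of 10 RPKM, which removes *P4ha2*. Between *ptgs2*-KO and *ptgs1*-KO cells the count of 5 became 3 with no filter, with only these lines, or with Tukey comparisons.

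With 1 sample left out the counts were 2 to 3 (*ptgs1*-KO), 2 (*ptgs2*-KO), and 4 to 5 (*ptges*-KO) against scramble, 2 to 4 for *ptges*-KO against *ptgs2*-KO, 5 to 7 against *ptgs1*-KO, 3 to 5 for *ptgs2*-KO against *ptgs1*-KO, and 6 to 8 over the 4 lines, where *Plod3* and *Leprel1* were lost. The replicate block changed no other call of a member than *Plod3* and *Leprel1* in *ptges*-KO against *ptgs2*-KO cells (count 4). Of 36 best partners, 10 shared a number.

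Signs turned in 32 values, all of differences that missed the threshold, the largest of 0.15 in size. With median ratio scaling *P4hb* and *Plod2* were at 0.01 and *Leprel2* at 0 in *ptges*-KO against scramble, and quantile normalization gave 0.05 for *Leprel2*. *P4hb* in *ptges*-KO against *ptgs2*-KO was at -0.15 with quantile normalization, 0 with Tukey comparisons, and -0.03 with Rn45s and AK155692 left out, which also gave 0.03 for *Leprel1* in *ptgs1*-KO against scramble and -0.03 for *Leprel2* in *ptges*-KO against *ptgs1*-KO. With 1 sample left out, differences from scramble ranged in *ptgs1*-KO cells from -0.11 to 0.20 (*Lepre1*), -0.09 to 0.07 (*Leprel1*), and -0.14 to 0.06 (*Leprel2*), in *ptgs2*-KO cells from -0.10 to 0.03 (*P4hb* and *Plod2*) and -0.18 to 0.05 (*Leprel1*), and in *ptges*-KO cells from -0.06 to 0.02 (*P4hb*), -0.05 to 0.01 (*Plod2*), and -0.04 to 0 (*Leprel2*). Those of *ptges*-KO from *ptgs2*-KO ranged from -0.04 to 0.09 (*P4hb*) and -0.04 to 0.08 (*Plod2*), that from *ptgs1*-KO from -0.08 to 0.12 (*Leprel2*), and those of *ptgs2*-KO from *ptgs1*-KO from -0.03 to 0.16 (*Plod3*) and -0.17 to 0.06 (*Leprel1*). The cause was not tested.

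Over all genes, calls in *ptgs1*-KO cells numbered 1045, and 1570 with quantile normalization, 582 with the filter of 10 RPKM, or 645 and 658 without scramble replicate 1 or 2. In *ptgs2*-KO cells they numbered 1257, 1927 with median ratio scaling, and 722 to 829 with 1 of 5 samples left out. In *ptges*-KO cells 2969 became 1936 without replicate 2. Against *ptgs2*-KO 1873 became 1104 or 1193 without *ptges*-KO replicate 2 or 3, and 1209 without *ptgs2*-KO replicate 1. It was 1320 to 2236 with another sample of these lines left out. Leaving out Rn45s and AK155692 moved the higher share of calls from 50.2% to 62.2% in *ptgs1*-KO against scramble and from 43.8% to 31.9% in *ptges*-KO against *ptgs1*-KO. No alternative gave *P4ha2* a value with the filter of 10 RPKM. RPKM carry no read counts, so precision rests on 3 samples a line.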
